A study of Drosophila melanogaster with 9 samples.

Results

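Neurons release transmitter when vesicles docked at the active zone fuse with the plasma membrane in response to calcium. Fusion is driven by SNARE proteins on the vesicle and on the target membrane, and scaffold proteins of the active zone hold calcium channels and vesicles close together. Transcripts of this machinery were followed across 3 diets in the fly head and thorax, where brain, eye and thoracic ganglia supply the neurons and flight muscle makes up much of the thorax. The set was defined by gene symbol in the platform annotation and comprised nSyb, Syx1A, Snap25, comt, Syt1, Syn, unc-13, brp, Rim and cac. Of these 10 genes, 7 were among the 11981 genes named there, on 13 of 18769 probe sets other than controls. Syx1A, comt and Syt1 were named on none and are not analysed here.

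All arrays came from female Canton-S flies, a laboratory wild-type strain, aged 10 days, on Affymetrix arrays hybridised with RNA pooled from at least 75 flies. Flies were fed a normal diet, a restricted diet, or normal food with resveratrol, a plant polyphenol, and each of these 3 groups had 3 biological replicates. The labels tie the flies to no other genotype or treatment. Neither diet composition nor resveratrol dose is given in the sources used here.

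Values are log2 units on the authors' deposited scale, so that a difference of 1 is a doubling, and differences are first group minus second group. Between 9295 and 9405 probe sets of an array reached log2 4, the level used here for detection, and 8822 genes were tested. Markers of the labelled tissue reached that level: 12 of 14 named neuron markers, 11 of 11 muscle markers and 5 of 5 eye markers were tested. The neuron marker Shab was flat, with a mean of 5.57 on every diet and SD of 0.0002 to 0.0025. It is counted in the neuron marker mean used below. Germline markers were also detected, 6 of 7, although the labels name only head and thorax. Differences between 3′ and 5′ probe sets of the control transcripts, a sign of RNA integrity, overlapped between all diets for actin and eIF-4a. For GAPDH they were 0.71 to 0.76 with resveratrol, above 0.62 to 0.69 on the normal diet, and the restricted-diet range of 0.57 to 0.78 overlapped both. For 18S rRNA they were 0.07 to 0.50 on the restricted diet, 0.66 to 0.91 on the normal diet and 0.67 to 0.94 with resveratrol. The part of these differences in the results below was not tested.

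The first comparison asked how the restricted diet differs from the normal diet. All 7 genes had lower values on the restricted diet, with no overlap between the 3 arrays of each diet. nSyb, Snap25, Syn, unc-13, brp and Rim fell, with differences from -0.80 to -0.41, while cac did not pass the test (limma, Benjamini-Hochberg adjusted p under 0.05). Across all genes, 12.9% passed in the lower direction and 28.4% had lower values with no overlap, so the share among these 7 genes was above the background.

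**Figure D1:**
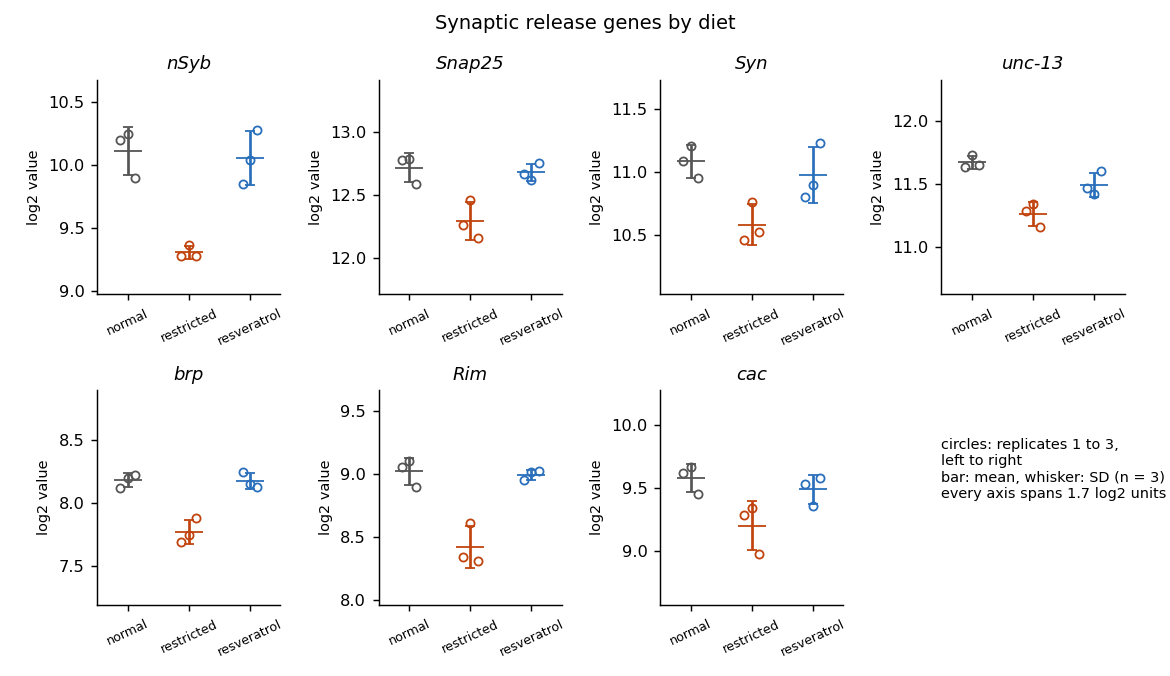
Log2 value of the probe set standing for each of 7 synaptic release genes (y axis, 1.7 log2 units in every panel) on the normal diet, the restricted diet and the normal diet with resveratrol. Circles are replicates 1 to 3 from left to right, bars are means and whiskers SD (n = 3). In every panel the 3 restricted-diet arrays lie below the 6 other arrays.

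nSyb (CG17248), neuronal synaptobrevin, is the SNARE of the vesicle membrane. Its values were 10.19, 10.24 and 9.89 on the normal diet, 9.27, 9.36 and 9.28 on the restricted diet, and 9.85, 10.04 and 10.28 with resveratrol. The restricted-diet arrays lay close together and below every other array, while normal-diet and resveratrol arrays overlapped. nSyb fell by 0.80 on the restricted diet, a 1.75-fold change (SE 0.13, limma adjusted p = 0.0121). Snap25 (CG40452) encodes a SNARE of the plasma membrane. It stood at 12.78, 12.79 and 12.59 on the normal diet, 12.26, 12.46 and 12.16 on the restricted diet, and 12.66, 12.62 and 12.75 with resveratrol. Restricted-diet replicate 2 came nearest to the other diets, and the normal-diet and resveratrol arrays overlapped. Snap25 fell by 0.42, or 1.34-fold (SE 0.09, limma adjusted p = 0.0230).

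Vesicle clustering and priming genes moved by similar amounts. Syn (CG3985) encodes synapsin, a phosphoprotein that holds vesicles in the reserve cluster. Its values were 11.09, 11.20 and 10.95 on the normal diet, 10.46, 10.76 and 10.52 on the restricted diet, and 10.80, 10.90 and 11.23 with resveratrol. Restricted-diet replicate 2 lay just under resveratrol replicate 1. Syn fell by 0.50, or 1.41-fold (SE 0.13, limma adjusted p = 0.0386). unc-13 (CG2999) encodes the factor that makes docked vesicles ready to fuse. Its values were 11.63, 11.73 and 11.65 on the normal diet, 11.29, 11.35 and 11.16 on the restricted diet, and 11.47, 11.42 and 11.60 with resveratrol. Of the probe sets standing for the 7 genes, this was the one for which the resveratrol arrays also lay below all normal-diet arrays. unc-13 fell by 0.41 on the restricted diet, or 1.33-fold (SE 0.07, limma adjusted p = 0.0139).

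Of the active zone scaffold genes, brp (CG42344), or Bruchpilot, builds the electron-dense T-bar of fly synapses. Its brightest probe set, 1625489_at, read 8.12, 8.19 and 8.22 on the normal diet, 7.69, 7.74 and 7.88 on the restricted diet, and 8.25, 8.15 and 8.13 with resveratrol. Normal-diet and resveratrol arrays were interleaved, and the restricted-diet arrays lay apart from both. brp fell by 0.41, or 1.33-fold (SE 0.07, limma adjusted p = 0.0126). A further probe set, 1636216_at, read 6.19, 6.17 and 5.88 on the normal diet, 5.30, 5.32 and 5.40 on the restricted diet, and 5.98, 5.81 and 6.10 with resveratrol. With every probe set fitted as a feature of its own it fell by 0.74 (95% interval -0.98 to -0.50, limma adjusted p = 0.00923). The interval of the brightest probe set, -0.57 to -0.26, overlapped it. The other 2 brp probe sets lay near the lowest value of the table, 2.12, with 2.22 the highest of their values, and were not tested.

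Rim (CG33547) encodes the scaffold that binds both vesicle Rab3 and calcium channels. Its brightest probe set, 1639490_at, read 9.06, 9.10 and 8.90 on the normal diet, 8.34, 8.62 and 8.31 on the restricted diet, and 8.95, 9.01 and 9.02 with resveratrol. The resveratrol arrays lay within the normal-diet range and the restricted-diet arrays below it. Rim fell by 0.60, or 1.51-fold (SE 0.09, limma adjusted p = 0.0121). Probe set 1623169_at read 5.999, 6.29 and 5.94 on the normal diet, 5.87, 5.36 and 5.12 on the restricted diet, and 5.54, 5.92 and 5.88 with resveratrol. It differed by -0.63 and did not pass (SE 0.20, limma adjusted p = 0.0645), and its restricted-diet arrays spread widely, replicate 1 lying among the resveratrol arrays. The dimmest, 1638777_at, lay between 3.68 and 4.47 on all arrays and differed by -0.22 (limma adjusted p = 0.305).

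cac (CG43368) encodes the pore-forming subunit of the calcium channel that triggers release. Probe set 1640614_at read 9.62, 9.67 and 9.45 on the normal diet, 9.29, 9.34 and 8.98 on the restricted diet, and 9.54, 9.36 and 9.58 with resveratrol. Restricted-diet replicate 3 stood apart below the other 2, and restricted-diet replicate 2 lay just under resveratrol replicate 2. cac differed by -0.38 and did not pass (SE 0.11, limma adjusted p = 0.0541). The interval of its difference, -0.64 to -0.12, overlapped those of the other 6 genes. Its other probe set, 1640033_at, lay at the lowest value, 2.12, on every array.

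In limma, the calls of nSyb, unc-13, brp and Rim held without any single array. Those of Snap25 and Syn ended without normal-diet replicate 1 or 2 or restricted-diet replicate 1 or 3, and that of Syn also without resveratrol replicate 2. The count of 6 genes was then 4, or 5 without resveratrol replicate 2.

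The same comparison was read against other cell types, since bulk RNA cannot tell fewer cells of a type from less RNA per cell. Of 12 tested neuron markers, a list that holds none of the 7 genes, 9 fell and none rose, where 12.9% of all genes fell. Their median difference was -0.46, beside -0.42 for the 7 release genes and -0.05 for all genes. The mean level of the release genes minus that of the neuron markers was 0.50 ± 0.03 on normal food, 0.48 ± 0.02 under restriction and 0.47 ± 0.03 with resveratrol (SD, n = 3). These ranges overlapped between all diets, so the release genes moved with the other neuron markers to within the spread of replicates. With each array centred on its neuron markers, the median of all genes went from -0.05 to 0.43 and the calls from 1139 lower and 465 higher to 61 lower and 5956 higher. On that scale nSyb alone of the 7 passed, at -0.33 (limma adjusted p = 0.0115), where 0.691% of genes passed lower. nSyb minus the neuron marker mean was 0.32, 0.31 and 0.19 on the normal diet, -0.06, -0.08 and -0.02 on the restricted diet, and 0.14, 0.27 and 0.37 with resveratrol. Syn and Rim stood at -0.02 and -0.12 on that scale, and Snap25, unc-13, brp and cac turned to 0.06, 0.07, 0.07 and 0.10. None of these 6 passed (limma adjusted p from 0.209 to 0.844).

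Markers of other tissues moved too. Of 9 glia markers 4 fell, of 11 muscle markers 6 fell and of 5 eye markers all 5 fell, where 12.9% of all genes fell. The medians were -0.31, -0.30 and -0.50. Of 9 midgut markers 6 rose and of 5 fat body markers 3 rose, where 5.27% of all genes rose. The 3 fat body markers were Lsp2, fit and Obp99b, at 3.89, 0.78 and 1.39. FASN1 and apolpp differed by 0.06 and -0.01 and did not pass. Of 6 germline markers none passed in limma, 3 had an unadjusted p under 0.05, all 6 had higher restricted-diet values with no overlap, and the median was 1.94. Over all 8822 genes, 3329 had an unadjusted p under 0.05 in either direction, and 16.4% were higher with no overlap. The summed level of the 6 germline markers was log2 10.37 to 10.94 on the normal diet, 11.52 to 12.48 on the restricted diet and 10.03 to 12.48 with resveratrol; vas did not reach the filter and nos is not named. The summed level of the 12 neuron markers was log2 14.85 to 15.01, 14.51 to 14.61 and 14.80 to 14.99 in the same order; eag and nAChRalpha1 did not reach the filter. A fit with the mean germline level as a further term was added after the data were seen. In it the release genes differed by -0.54 to -0.21 between the restricted and the normal diet. None then passed in limma (adjusted p from 0.0930 to 0.363), and over all genes 0.0227% passed in the lower direction. The covariate differs between diets, so it can also take out part of a difference between diets.

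**Figure D2:**
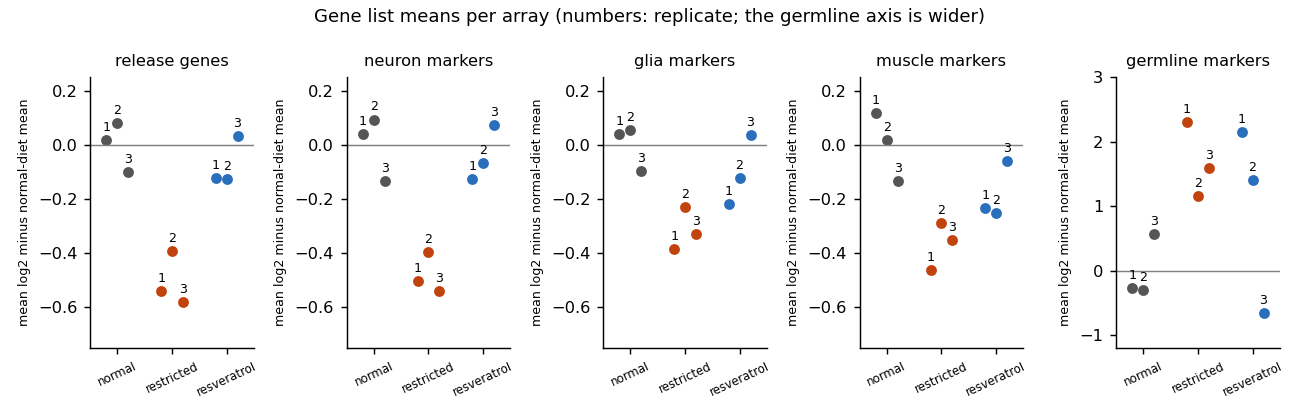
Mean log2 level of the 7 release genes and of neuron, glia, muscle and germline markers on each array, minus the mean of the 3 normal-diet arrays (y axis, log2 units, wider for the germline). Points are arrays and numbers are replicates; release genes and neuron markers are lowest on the 3 restricted-diet arrays, and germline markers spread most among the resveratrol arrays.

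Within each diet the release genes tended to be high or low together. Normal-diet replicate 2 had the highest value for 6 of the 7 genes and normal-diet replicate 3 the lowest for 5. Among restricted-diet arrays replicate 2 was highest for 6, and among resveratrol arrays replicate 3 was highest for 6. brp, read from 1625489_at, was the exception on each diet, with its highest values on normal-diet replicate 3, restricted-diet replicate 3 and resveratrol replicate 1. The further brp probe set 1636216_at differed from this. It was highest on normal-diet replicate 1, restricted-diet replicate 3 and resveratrol replicate 3, and lowest on normal-diet replicate 3 among the normal-diet arrays. The mean germline level was highest on normal-diet replicate 3 among the normal-diet arrays, at 7.61 against 6.78 and 6.74. Among the resveratrol arrays it was lowest on replicate 3, at 6.39 against 9.19 and 8.45, and among the restricted-diet arrays it was lowest on replicate 2, at 8.20 against 9.34 and 8.63. On these 3 arrays the mean of the release genes lay at the opposite end of its diet. It was also highest on normal-diet replicate 2, where the germline level was lowest. The arrays with the highest germline level on the other diets, replicate 1 of each, did not match in this way. There the release genes were lowest on restricted-diet replicate 3 and resveratrol replicate 2. The part of the germline level in the diet differences was read only through the covariate above.

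The second comparison asked what resveratrol changes when added to the normal diet. None of the 7 genes passed in limma, and 1, unc-13, had an unadjusted p under 0.05. Over all genes 0.227% passed in either direction, so few calls were available to any list. An unadjusted p under 0.05 was found for 859 of all 8822 genes. The differences were all negative and small: -0.05 for nSyb (95% interval -0.35 to 0.24), -0.04 for Snap25 (-0.25 to 0.18), -0.11 for Syn (-0.41 to 0.20), -0.01 for brp (-0.16 to 0.15), -0.03 for Rim (-0.24 to 0.19) and -0.09 for cac (-0.35 to 0.17). unc-13 differed by -0.18 (-0.34 to -0.01, limma adjusted p = 0.491). Of the probe sets standing for the 7 genes it alone showed no overlap, where 9.09% of all genes were lower with no overlap. Rim probe set 1623169_at, which does not stand for its gene, was also lower with no overlap. It differed by -0.30 (-0.76 to 0.17, limma adjusted p = 0.718). For each probe set standing for the 7 genes, the lower end of the resveratrol interval lay above the restricted-diet difference. That difference has an error of its own, so this does not set the 2 diets against each other. For cac the values were -0.35 and -0.38, the latter with an interval of -0.64 to -0.12. For Rim 1623169_at the lower end, -0.76, lay below the restricted-diet difference of -0.63. Both comparisons share the normal-diet arrays.

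The third comparison set the restricted diet directly against resveratrol. It shares arrays with both comparisons above. All 7 genes were again lower on the restricted diet with no overlap, where 21.2% of all genes were. nSyb, brp and Rim fell, with differences of -0.75, -0.40 and -0.57 (SE 0.13, 0.07 and 0.09), each at a limma adjusted p = 0.0413, where 2.09% of genes passed lower. The other 4 did not pass: Snap25 at -0.39 (limma adjusted p = 0.0678), Syn at -0.39 (0.126), unc-13 at -0.23 (0.109) and cac at -0.29 (0.172). These values are of the probe set standing for each gene. With every probe set fitted as a feature of its own, brp 1636216_at fell by 0.62 (limma adjusted p = 0.0385). Rim 1623169_at differed by -0.33 with overlap (limma adjusted p = 0.326) and Rim 1638777_at by 0.04 (limma adjusted p = 0.865), and neither passed. The count of 3 was 0 without normal-diet replicate 1, restricted-diet replicate 1 or 3, or resveratrol replicate 2 or 3, and 1 without restricted-diet replicate 2 or resveratrol replicate 1. In the same fits and order, calls over all genes in the lower direction went from 184 to 2, 3, 0, 0 and 1, then 32 and 63. The count of 3 was also 0 after quantile normalization or median centring, where calls over all genes went from 184 lower and 40 higher to 16 and 20, and to 7 and 14. With arrays centred on the neuron markers nSyb alone passed, at -0.31 (limma adjusted p = 0.0164), where 0.499% of genes passed lower. With the germline term nSyb alone passed as well, at -0.64 (limma adjusted p = 0.0470), where 0.170% of genes passed lower.

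**Figure D3:**
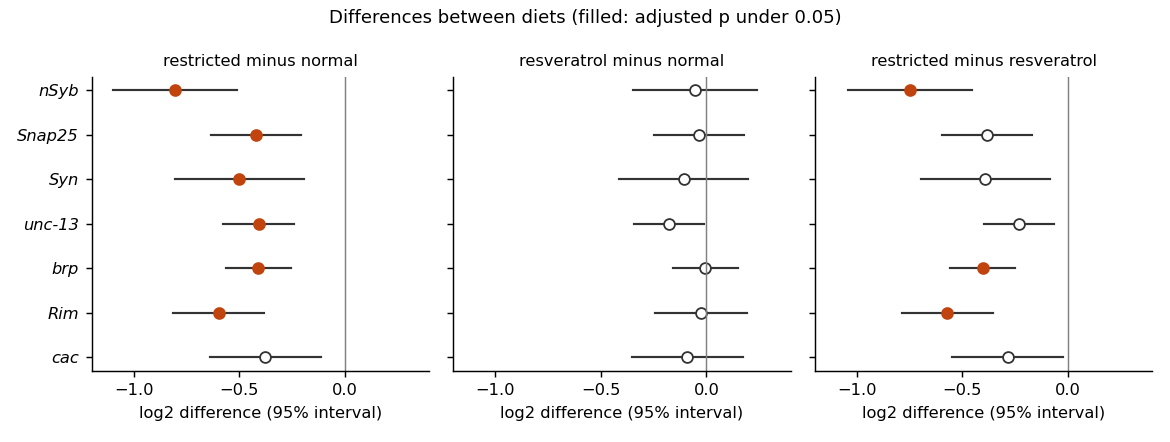
Log2 difference of each release gene in the 3 comparisons (x axis), with 95% intervals from limma as lines and filled points where the adjusted p is under 0.05. Points for the restricted diet lie left of 0 against both other diets, and intervals for resveratrol against the normal diet include 0 except for unc-13.

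Other synaptic genes were read from 4 lists that hold none of the 7 genes. Of 56 genes listed, 46 were tested. On the restricted diet against the normal diet 26 of the 46 fell, none rose and 20 did not pass, with a median of -0.36. Over all genes 12.9% fell and the median was -0.05, the background for each of the 4 lists below. Leaving out normal-diet replicate 1 or 2 gave 3 or 4. Leaving out restricted-diet replicate 1 or 3 gave 5 or 9, and leaving out resveratrol replicate 2 gave 16. Of all 8822 genes, the calls in the lower direction went from 1139 to 225, 327, 373, 526 and 766 in the same fits.

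Among 14 SNARE regulators and fusion factors, 9 fell and 5 did not pass, with a median of -0.33. Tomosyn, which binds SNAREs and limits fusion, fell by 0.32 (limma adjusted p = 0.0158). alphaSnap, the adaptor that brings NSF to spent SNARE complexes, fell by 0.36 (limma adjusted p = 0.0233). Cadps, a priming factor best known for dense-core vesicles, fell by 0.49. Esyt2, an extended synaptotagmin known from contacts between endoplasmic reticulum and plasma membrane rather than from vesicles, fell by 0.38. Of the 9 fits that each left out 1 array, Tomosyn and Esyt2 passed in 7 and alphaSnap and Cadps in 5.

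Of 12 further active zone genes 8 fell and 4 did not pass, with a median of -0.48. stj, the alpha2delta subunit that accompanies cac to the active zone, fell by 0.59 (limma adjusted p = 0.0100). Its call held without any single array. Rph, rabphilin, a Rab3 effector known from mammals, fell by 0.39, RhoGAP100F, known as Syd-1, an early active zone assembly protein, by 0.48, and Nrx-1, the presynaptic adhesion protein neurexin, by 0.47. Rph passed in 8 of the 9 fits with 1 array left out and RhoGAP100F and Nrx-1 in 5.

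Vesicle loading genes had the lowest median of the 4 lists, -0.49. Of 6 tested, 4 fell. VAChT, which loads acetylcholine into vesicles, fell by 0.80 (limma adjusted p = 0.0126), and ChT, which returns choline to the terminal, by 0.63. VGAT, the vesicular GABA transporter, fell by 0.68 and Syngr, the vesicle membrane protein synaptogyrin, by 0.36. VAChT passed in all 9 fits with 1 array left out, ChT in 8, Syngr in 5 and VGAT in 3. VGlut and prt did not reach the filter.

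The median of the vesicle endocytosis genes lay nearest to 0. Of 14 tested, 5 fell and 9 did not pass, with a median of -0.22. nwk, a membrane-bending adaptor of nerve terminals, fell by 0.45 (limma adjusted p = 0.0161). Amph, amphiphysin, which in flies is known from muscle T-tubules more than from vesicle recycling, fell by 0.44. EndoA, endophilin, fell by 0.37 and AP-2alpha, a clathrin adaptor subunit used in all tissues, by 0.27. nwk passed in 6 of the 9 fits with 1 array left out, Amph in 5, EndoA in 3 and AP-2alpha in 2. On the scale centred on the neuron markers, 14 of the 46 genes passed higher and 2 lower, and the median turned to 0.12, where 67.5% of all genes passed higher.

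Resveratrol against the normal diet gave no call among the 46 genes in limma. Of the 46, only Eps-15, an endocytic adaptor, had an unadjusted p under 0.05, at -0.20 (limma adjusted p = 0.377). Of all 8822 genes, 859 had an unadjusted p under 0.05. The genes with the smallest p of the other lists were Esyt2 at -0.14, Liprin-alpha, an active zone organiser, at 0.20 and ChT at -0.13. The median of the 46 was -0.05. Against resveratrol, stj differed by -0.62 on the restricted diet (limma adjusted p = 0.0390) and VAChT by -0.78 (limma adjusted p = 0.0413). The other 44 did not pass, and over all genes 2.09% passed lower. Both calls ended without normal-diet replicate 1, restricted-diet replicate 1 or 3, or resveratrol replicate 2 or 3, and that of VAChT also without restricted-diet replicate 2 or resveratrol replicate 1. In the fits where both ended, calls over all genes in the lower direction went from 184 to between 0 and 3. Centred on the neuron markers, 2 of the 46 passed lower and 14 higher, where 62.3% of all genes passed higher. Syt12 differed by -0.99 and did not pass (SE 0.23, limma adjusted p = 0.0658). Nor did Rph at -0.30, RhoGAP100F at -0.41, Rab3 at -0.43, ChT at -0.50, Syngr at -0.31, Vha100-1, a proton pump subunit of nerve terminals, at -0.20, and nwk at -0.37.

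**Figure D4:**
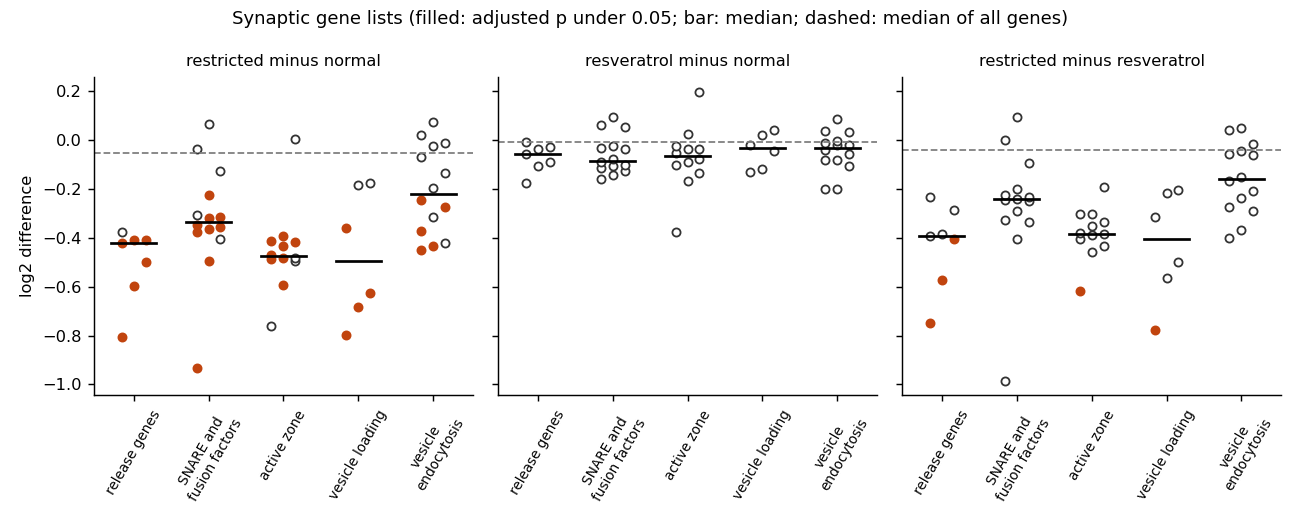
Log2 difference (y axis) of each gene of the 7 release genes and of 4 lists of other synaptic genes, in the 3 comparisons. Points are genes, filled where the adjusted p is under 0.05, bars are list medians and the dashed line is the median of all genes; medians lie below the dashed line against both other diets, and among the 4 lists furthest for active zone and vesicle loading genes.

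The genes whose profile over the 9 arrays was most like the mean profile of the 7 release genes were picked by the smallest root-mean-square difference of centred log2 values. They were RhoGAP100F (0.0381), hig (0.0383), CG7646 (0.0385), CG2269 (0.0399) and Rab3 (0.0406), out of all tested genes with 1 symbol. RhoGAP100F and Rab3, the small GTPase of synaptic vesicles, are on the active zone list, and hig encodes a secreted protein of the synaptic cleft. On the restricted diet against the normal diet these 5 differed by -0.48, -0.50, -0.44, -0.48 and -0.49. They were picked by likeness to a mean profile that is itself lower on the restricted diet, so these differences follow from the choice. Of the release genes Snap25 lay nearest to the mean profile (0.0475) and nSyb furthest (0.169).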

How the data were processed

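RNA from pooled flies was hybridised to 9 Affymetrix arrays, 3 per diet. The deposited values are log2 expression per probe set made by the authors with GCRMA, per the submitters' processing notes, whose version is not given in the sources used here. GCRMA models background from probe sequence, which can compress differences of dim probe sets; whether it did so here was not tested. Gene names came from the platform annotation, and probe sets naming several genes were kept as features without a gene name.

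Probe sets reaching log2 4 on at least 3 of 9 arrays were kept (9401), and the one with the highest mean stood for each gene, which left 8822 genes. All 9 arrays were fitted with 1 mean per diet in limma 3.58.1 (R 4.3.3), with moderated variances and Benjamini-Hochberg adjustment over all genes at 0.05. Tests are two-sided, intervals are 95% and the fit was tested on simulated data. The number of arrays limits the precision, and p-values measure the spread between these pooled samples.

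The genes and lists were chosen with earlier results of these data known. Named were all release genes with every probe set and, per list and comparison, up to 4 genes with the smallest p where any gene of the list passed, otherwise 1. The 5 genes nearest in profile were added. Alternatives covered scaling, filter, probe set choice, variance model, the arrays fitted, replicate number and each array left out. Replicate numbers did not pair the arrays: correlations of same-numbered deviations between diets ran from -0.33 to 0.40.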

Additional observations from a re-analysis of the deposited data

How the results depend on the processing

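Without the alternatives that centre arrays on neuron markers, leave out an array or use the germline covariate, the count of 6 release genes lower on the restricted than on the normal diet ran from 4 to 7. Leaving out 1 array gave 4 to 6, and 3 to 26 of the other synaptic genes. Those 26 became 7 with no filter, 17 without moderation and 15 with the replicate number as a block. The replicate block gave 5 release genes for restricted against normal, and 0 for the other comparisons. The 3 release genes called against resveratrol became 4 with trend and robust variances and 2 with the mean of probe sets. That count became 0 under quantile normalization, median centring, no filter, no moderation, a fit of 2 groups only and the block, and 0 to 3 with 1 array left out. The 2 other synaptic genes called there became 1 under quantile normalization and 4 with trend and robust variances. They became 0 under median centring, no filter, no moderation, the fit of 2 groups and the block, and 0 to 2 with 1 array left out. The cause was not tested for these settings, apart from the fewer arrays or degrees of freedom that some use. With arrays centred on the neuron markers, 1 release gene and 16 other synaptic genes passed in each restricted-diet comparison. By construction this removes the shift shared with neuron markers: medians turned to 0.0559 (release genes) and 0.12 (other synaptic genes) against the normal diet, and to 0.0468 and 0.16 against resveratrol. Among genes that passed before or after this centring, the sign against the normal diet turned for Snap25 (0.0559), unc-13 (0.0693), brp (0.0681), Tomosyn (0.16), Esyt2 (0.10), alphaSnap (0.12), Rph (0.0865), Nrx-1 (0.0092), Syngr (0.12), Vha100-1 (0.29), nwk (0.0276), Amph (0.0435), EndoA (0.11), AP-2alpha (0.21) and Eps-15 (0.24). Against resveratrol, under the same limit, it turned for brp (0.0345), Vha100-1 (0.23), Amph (0.20) and Eps-15 (0.40). Only 28 release and other synaptic genes were followed through every setting, so the lists leave out any turn among the remaining synaptic genes. Some followed genes that passed in neither fit, cac among them, also turned and are not listed. With the germline covariate, chosen after seeing the data, 0 release genes passed against the normal diet and 1, nSyb at -0.64, against resveratrol, with 0 other synaptic genes in either. Resveratrol against the normal diet gave no call among release or other synaptic genes under any setting run.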

Other observations

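The broadly expressed relatives of the neuronal SNARE genes, picked after their values were seen, did not share 1 pattern on the restricted against the normal diet. Syb, the synaptobrevin used outside nerve terminals, differed by 0.07 (limma adjusted p = 0.420), beside -0.80 for nSyb. Snap29, a SNARE of endosomes and autophagosomes, differed by -0.03 (limma adjusted p = 0.778), whereas Snap24 fell by 0.35 (limma adjusted p = 0.0345). Among general coat proteins of endocytosis, AP-2mu differed by 0.07, Clc by 0.02, AP-2sigma by -0.01 and Chc by -0.07, and none of these 4 passed, whereas AP-2alpha of the same adaptor complex fell by 0.27 (limma adjusted p = 0.0387). Whether nSyb differs from Syb in response to diet was not tested.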
